A study of Mus musculus with 2 samples.

Results

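The hairpin genes Mir6896 to Mir7094 are microRNA genes whose symbols carry consecutive numbers and that were proposed as a set of mirtron-type hairpins. They were chosen by symbol alone: every gene of the count tables whose GENCODE M21 symbol lies in that run, with or without a letter or copy suffix, which gave 201 of 2202 microRNA genes. MicroRNA-seq, the sequencing of small RNA, had been run on 2 libraries of tissue that the labels call a layer of the hippocampus. Both came from male adult mice aged 8 to 10 months with the strain label 5xFAD/CAST, supplied by The Jackson Laboratory. 5xFAD is a transgenic model of Alzheimer disease in which mutant human transgenes are driven by the neuronal Thy1 promoter, and CAST is a wild-derived inbred strain. The libraries are numbered as biological replicates 1 and 2 of 1 group, with separate tissue records and a shared donor record, so whether the tissues came from separate animals cannot be told from the labels. There was no control group, and the spread between these 2 libraries may be technical.

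A mirtron is a microRNA precursor made by splicing. In its canonical form a short intron is itself the hairpin: the spliceosome cuts both ends, the lariat is debranched, and the folded intron goes to Dicer without cleavage by Drosha, the nuclear enzyme that releases other microRNA hairpins. In a tailed mirtron only one end of the hairpin is a splice site, and the rest of the intron is a tail that exonucleases trim. Dicer leaves a 5p and a 3p strand, and the seed near the 5′ end of the strand bound by Argonaute does most of the pairing to target RNAs.

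The hairpins below are shown because they are among those with the most reads of the set and show both arrangements. They are the M21 transcripts on mm10, written 5′ to 3′, and the capitals mark the intron's first bases GT and last bases AG where the hairpin reaches that splice site. Mir7080 and Mir6944 run from GT to AG and are whole introns, whereas Mir7044 reaches only the AG.
Mir7080 hairpin, chr8:123130106-123130172, plus strand: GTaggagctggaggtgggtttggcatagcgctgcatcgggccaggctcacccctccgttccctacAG
Mir6944 hairpin, chr13:55477681-55477776, minus strand: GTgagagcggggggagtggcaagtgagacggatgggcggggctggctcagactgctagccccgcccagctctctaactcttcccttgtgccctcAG
Mir7044 hairpin, chr6:118085192-118085263, plus strand: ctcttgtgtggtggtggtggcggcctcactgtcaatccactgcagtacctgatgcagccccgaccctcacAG
Mir7080 fills the 67 bases of an intron of Cpne7, which encodes a copine, a calcium-dependent membrane-binding protein. Mir6944 fills a 96-base intron of Dbn1, the gene for the dendritic spine protein drebrin. Mir7044 is the last part of a 705-base intron of Rasgef1a, a Ras-family exchange factor gene.

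Mature sequences were taken from RefSeq (GRCm38.p6), which held 354 arms of 185 members and no entry for 16 members. Those of the most abundant members with an entry are printed with the seed (bases 2 to 8) in capitals, to show how the 2 arms differ in composition and how many 3p arms end in the AG of the splice site.
miR-7080-5p: gUAGGAGCuggagguggguuugg
miR-7080-3p: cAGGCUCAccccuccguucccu
miR-7044-5p: gUGUGGUGgugguggcggc
miR-7044-3p: aUGCAGCCccgacccucacag
miR-7047-5p: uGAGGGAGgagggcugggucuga
miR-7047-3p: uCACCCUCacccuuccuccuucc
miR-6944-5p: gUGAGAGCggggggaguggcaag
miR-6944-3p: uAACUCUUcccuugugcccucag
miR-7052-5p: uGUGGGAAgguggaggccuuu
miR-7052-3p: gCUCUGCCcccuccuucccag
miR-7019-5p: aUCUGGGAggggcugucaggagu
miR-7019-3p: uCACCUUGgccgccucucugcag
miR-7066-5p: uGGGUUGGgaaaugaguagagg
miR-7066-3p: uCUACCCAuugccugccucccag
miR-7069-5p: uUGGGGGCcugggagggugacac
miR-7069-3p: cCUGCCCUgccaaccccuaca
miR-6959-5p: uGGGAAACcugugucgggcugug
miR-6959-3p: cUGCACCGaccugcucucccag
miR-7046-5p: uGUAGGGUgaggcugggagccagg
miR-7046-3p: uGAACCACccaucccccuacag
Among these 10 members, the 3p arm stopped at the last base of the hairpin in 7, all ending in ag. The 3p arms of Mir7080, Mir7047 and Mir7069 stopped 4, 2 and 1 bases before it. Over the set, 131 of 177 annotated 3p arms (74.0%) ended exactly at the hairpin's 3′ end, against 114 of 525 (21.7%) among other microRNA genes, and 137 (77.4%) ended in AG against 59 (11.2%). Pyrimidines made up a median of 72.2% of a 3p arm and 31.8% of a 5p arm in the set, against 54.5% and 50.0% elsewhere. The sequence before a 3′ splice site is rich in pyrimidines in introns generally, as background. These are properties of the annotation; the counts are per hairpin and do not tell the arms apart.

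The label of the set was checked against the annotation, and its hairpins were found at splice sites but mostly not in short introns. An end within 5 bases of a splice site counted as lying there. Of the 201 hairpins, 191 had an end at a splice site of an intron on their own strand, against 44 of 2001 other microRNA genes. In 173 of them the 3′ end alone lay there, which is the arrangement of a 5′-tailed mirtron. Only 15 spanned a whole intron. A further 3 lay at the 5′ splice site alone (Mir6936 in Sirt7, Mir6977 in Ptprs and Mir6927 in Mllt6), 1 lay inside an intron (Mir7036b in Add1) and 9 overlapped an exon. The 3′ end fell on the last base of the intron in 187 hairpins, and 187 hairpins (93.0%) ended in AG, against 148 (7.40%) of the others; both dinucleotides were read on the strand of the gene only. A start in GT was held by 31 members (15.4%) and 114 others (5.70%). Of the 44 others with an end at a splice site, 24 (54.55%) ended in AG and 10 (22.73%) started in GT. The 191 such members ended in AG in 187 cases and started in GT in 29 (15.18%). Among whole-intron hairpins, 13 of 15 members and 8 of 8 others started in GT. A higher share of GT was therefore not particular to the set.

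Host introns covered a wide range of lengths. Over the 173 hairpins at a 3′ splice site the median intron had 569 bases, from 77 bases to the 36269 bases of the Klf7 intron that ends in Mir6899. The 15 whole-intron hairpins had 67 to 137 bases with a median of 83. In all, 43 of the 192 intronic members lay in introns of up to 100 bases and 62 in introns of over 1000 bases. Other microRNA genes in introns had a median intron of 15098 bases. Those with an end at a splice site were close to the set in this. The median intron was 241.5 bases for these 44 genes, against 479 for the 191 such members. For the 31 others at a 3′ splice site alone it was 562 bases. The 192 intronic members lay in 188 host genes. Arap3, Cmip, Skiv2l and Srebf1 each held a pair of members, in different introns.

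Hairpins of the set were shorter and richer in G and C than other microRNA genes. Their median length was 66 bases against 93, and their median GC content 57.1% against 50.0%. The predicted folding energy per base had a median of -0.389 kcal/mol against -0.365. The 44 other genes with an end at a splice site were like the set in all 3 measures, with medians of 66.5 bases, 56.5% GC and -0.389 kcal/mol. Only 4 members (1.99%) shared a stretch of 20 bases with another microRNA gene, against 1083 others (54.1%). These were Mir7094-1 and Mir7094-2 with each other, Mir6970 with Gm27471, and Mir7065 with Gm27475. Their counts are uncertain. Reads with several matches stand in a row of their own without a gene, at 41.6% of all reads in replicate 1 and 38.2% in replicate 2. The reads of that row count toward no gene and enter no CPM. The rule by which the counter set them aside is not stated.

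**Figure D1:**
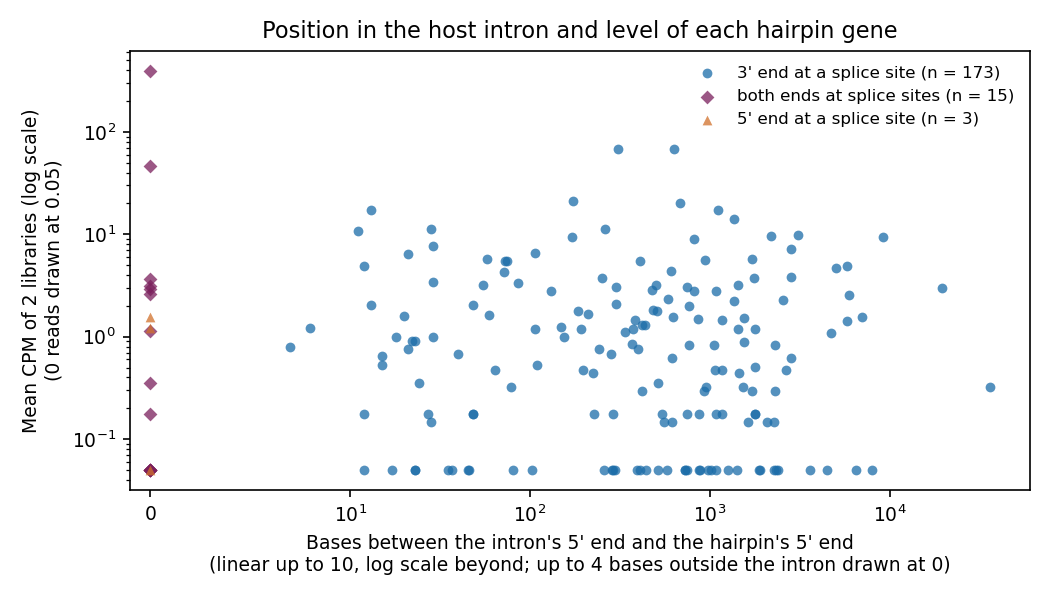
Each point is 1 of 191 hairpin genes with an end at a splice site, by the distance from the start of its intron (horizontal axis, bases) and its mean CPM over 2 libraries (vertical axis, log scale, 0 reads drawn at 0.05). Diamonds are the 15 whole-intron hairpins, drawn at 0 (Mir7082 starts 4 bases outside its intron), with Mir7080 at the top at 394.9 CPM, and the hairpins at a 3′ splice site alone (circles) reach 67.6 CPM.

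Reads fell on many members of the set at low counts. A level is given as CPM, reads on the strand of the gene for every 1000000 reads assigned to microRNA genes, with 3421977 assigned reads in replicate 1 and 2820468 in replicate 2. Detection required 10 reads in each library, which is 2.92 CPM in replicate 1 and 3.55 CPM in replicate 2. By that rule 31 members (15.4%) were detected, against 358 of the other 2001 genes (17.9%). At least 1 read in each library was seen for 113 members (56.2%) and 494 others (24.7%), and no read in either library for 50 members (24.9%) and 1396 others (69.8%). Another 38 members had reads in 1 library only. Of the 44 other genes with an end at a splice site, 33 (75%) had a read in each library and 8 (18.2%) had none. Of the 191 members with such an end, 113 (59.2%) had a read in each library and 45 (23.6%) had none. Of the 918 other genes without a shared stretch, a group closer to the members in this respect, 277 (30.2%) were detected, 383 (41.7%) had a read in each library and 449 (48.9%) had none. A count of 0 allows up to 3 reads, or 0.877 CPM in replicate 1 and 1.06 CPM in replicate 2, so the members without reads were under that level and not shown to be absent. Intervals and floors here cover counting error only, and whether reads from CAST alleles were lost in placement on mm10 was not examined. No read lay on the strand opposite to any member.

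**Figure D2:**
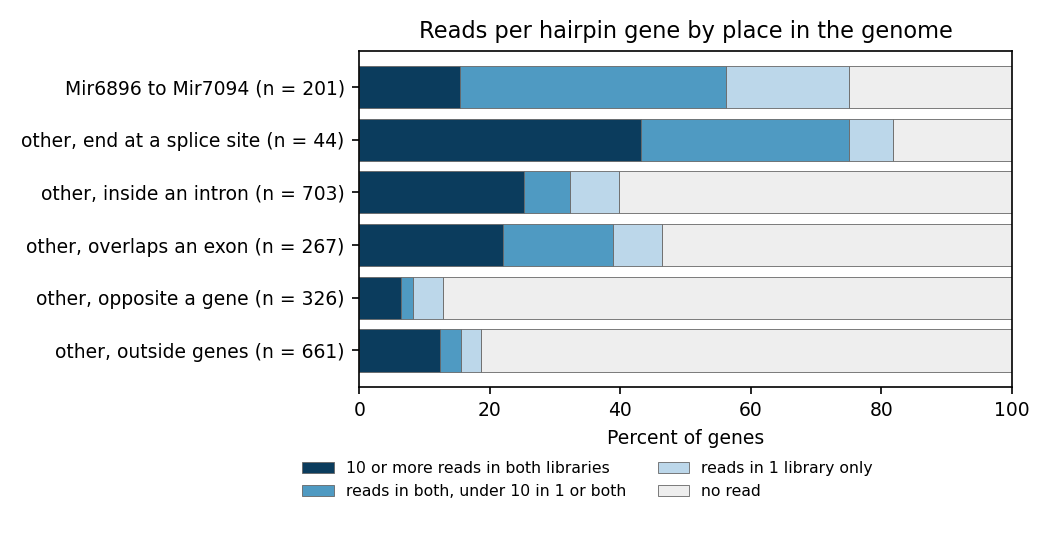
Bars give the percent of genes (horizontal axis) by read count, for the Mir6896 to Mir7094 hairpins and for other microRNA genes by place. Members with reads in both libraries but under 10 in 1 or both are the broad middle section of the first bar, while genes without a read are 24.9% of it.

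All 31 detected members had an end at a splice site, as did 191 of all 201 members. They were 29 of the 173 hairpins at a 3′ splice site alone (16.8%) and 2 of the 15 whole-intron hairpins (13.3%), Mir7080 and Mir6944. Among other microRNA genes with an end at a splice site, 19 of 44 (43.2%) were detected, with a median of 26.6 CPM against 9.39 CPM for the detected members. The whole-intron hairpins outside the set were detected in 6 of 8 cases. The 9 members that overlap an exon had 4 reads in replicate 1 and 1 in replicate 2 in all, and the hairpins at a 5′ splice site alone had 2 and 14.

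Intron length did not order the detected share, whereas GC content did. Detected members were 7 of 43 (16.3%) in introns of up to 100 bases, 5 of 23 (21.7%) from 101 to 200, 9 of 64 (14.1%) from 201 to 1000 and 10 of 61 (16.4%) beyond, among members with an end at a splice site. By GC content they were 5 of 78 hairpins under 55% (6.41%), 9 of 52 from 55% to under 60% (17.3%) and 17 of 71 at 60% or more (23.9%). These shares are descriptions over genes of the same libraries.

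The set as a whole took a small part of the assigned reads, and 1 hairpin held much of it. Members had 2454 reads in replicate 1, or 0.0717% (exact Clopper-Pearson 95% interval 0.0689 to 0.0746), and 3481 in replicate 2, or 0.123% (0.119 to 0.128). The mean was 0.0976% ± 0.0366 (SD, n = 2). Mir7080 made up 36.2% and 43.0% of the members' reads, and the 20 most abundant members 73.4% and 81.9%. Without Mir7080 the set took 0.0457% and 0.0704%. The share was higher in replicate 2 with Mir7080 (1.72 times) and without it (1.54 times). Most of that rise lay in the 31 detected members, which took 0.0574% and 0.108%. The 170 members not detected took 0.01435% and 0.01542%.

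Mir7080 (ENSMUSG00000098582.1) was the most abundant member. It had 889 reads in replicate 1 and 1495 in replicate 2, which is 259.8 and 530.1 CPM, or 394.9 ± 191.1 CPM (SD, n = 2). It ranked 134 of the 389 detected microRNA genes and was the only member above their median of 105.4 CPM. For comparison 4 mirtrons outside the set were picked by name. Mir1224 in Vwa5b2 had 387.3 ± 118.7 CPM, Mir877 in Abcf1 376.9 ± 187.5 and Mir1981 in Marc2 371.8 ± 26.2 CPM, which differ from Mir7080 by less than its SD. Mir702, annotated here across an exon of Plod3, had 320.2 ± 133.8 CPM. The 8 whole-intron hairpins outside the set, 3 of these 4 among them, ranged from 0.146 CPM for Gm27471 and 2.59 for Mir1982 to 940.2 ± 612.3 CPM for Mir3102.

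The next members lay far below Mir7080 in both libraries. Mir7044 in Rasgef1a (ENSMUSG00000098583.1) had 146 and 261 reads, or 67.6 ± 35.3 CPM. Mir7047 (ENSMUSG00000099258.1) had 172 and 239 reads, or 67.5 ± 24.4 CPM, so their order was reversed between the libraries and they did not differ beyond their spread. Mir6944 in Dbn1 (ENSMUSG00000098341.1) had 95 and 186 reads, or 46.9 ± 27.0 CPM, an SD that reaches both of these. No other member passed 100 reads in a library.

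A group of 5 members lay between 14 and 21 CPM, all at the 3′ end of a host intron. Mir7052, in a 239-base intron of the deubiquitinase gene Josd2 (mm10 chromosome 7, 44470347 to 44470411), had 46 and 80 reads, or 20.9 ± 10.6 CPM. Mir6982, in a 746-base intron of Camk2a, which encodes the calmodulin-dependent kinase of excitatory synapses (chromosome 18, 60958073 to 60958140), had 50 and 72 reads, or 20.1 ± 7.72 CPM. Mir7019, in an intron of Pink1, a mitochondrial kinase gene mutated in a familial form of Parkinson disease (chromosome 4, 138316132 to 138316200), had 65 and 44 reads, or 17.3 ± 2.40 CPM. It was the one of these 5 with more reads in replicate 1. Mir6953, in an 81-base intron of Grina (chromosome 15, 76248191 to 76248258), had 32 and 70 reads, or 17.1 ± 10.9 CPM. Mir7066, in an intron of Ncan, the gene of the brain matrix proteoglycan neurocan (chromosome 8, 70102524 to 70102586), had 34 and 52 reads, or 14.2 ± 6.01 CPM. Every pair of these 5 differed by less than the larger of its SDs, so 2 libraries do not settle their order.

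From the tenth member downward the levels declined in small steps. Mir7069 in Farsa, a phenylalanyl-tRNA synthetase subunit gene, had 24 and 44 reads. Mir6959 in Sbf1, which encodes a myotubularin-related protein, had 25 and 43 reads. Mir7046 in Rabac1, a Rab acceptor gene, had 27 and 39. The levels of these 3 were 11.3 ± 6.07, 11.3 ± 5.61 and 10.9 ± 4.20 CPM. Mir7016 in Tmem39b had 16 and 41 reads, and Mir6945 in Pdlim7 had 23 and 34. Mir7004 in Atp9a, the gene of an endosomal lipid flippase family member, had 29 and 32 reads. For a further 4 members the CPM of the libraries differed little: Mir7031 in Sh2b3 with 33 and 26 reads, Mir6954 in Mroh1 with 27 and 28, Mir6985 in the cofilin phosphatase gene Ssh3 with 24 and 24, and Mir6900 in Ndufa10, a gene of mitochondrial complex I, with 24 and 21. Mir7000 in Mapk8ip1, the JNK scaffold gene, closed the 20 most abundant members with 19 and 21 reads, or 6.50 ± 1.34 CPM. The detected members' median of 9.39 CPM compares with 133.7 CPM for the other detected genes.

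**Figure D3:**
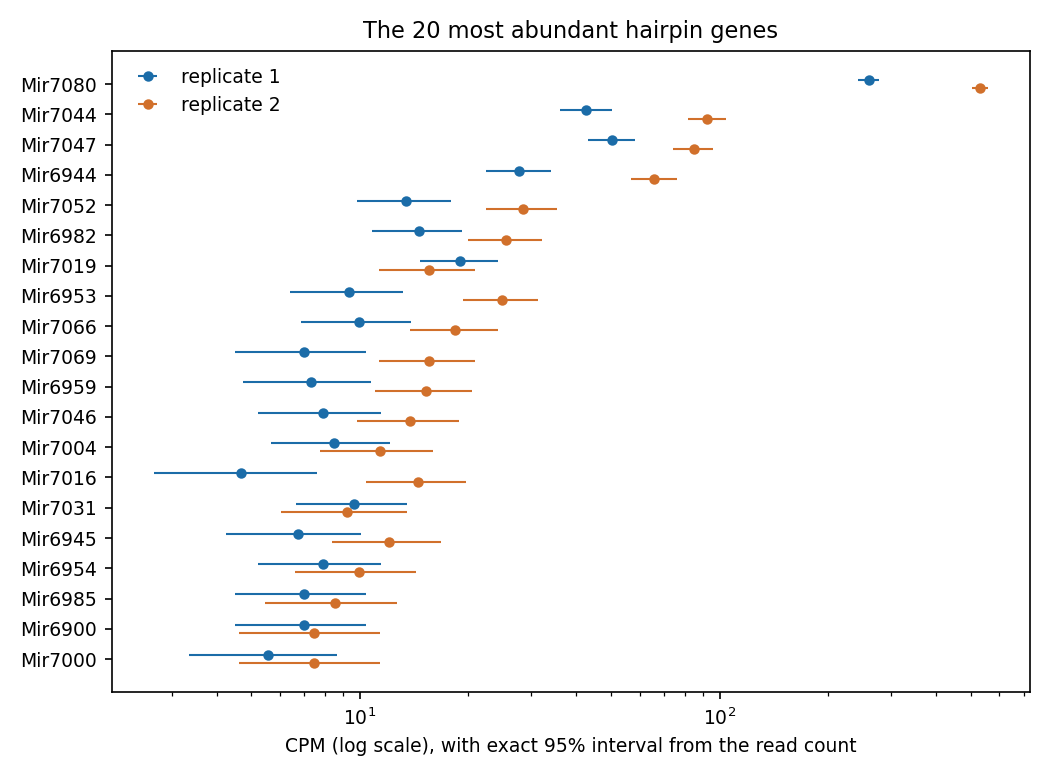
CPM (horizontal axis, log scale) of the 20 most abundant members in each library, with exact 95% intervals from the read counts. Mir7080 stands at 259.8 and 530.1 CPM, and the lower 16 members lie under 30 CPM in both libraries.

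Members near the count minimum are given as reads, since 10 reads in 1 library carry a wide counting error. In 23 members only 1 library reached the minimum. Mir6989 in Map4k2 had 26 reads in replicate 1 and 6 in replicate 2, and Mir7073 in Cnot1, the scaffold of the CCR4-NOT deadenylase, had 21 and 4. Mir6926 in Sgsm2 had 5 and 15 reads, and Mir7036 in Srrt, whose product acts with the RNA cap-binding complex in microRNA processing, had 6 and 14. The other named members of this kind differed by 2 to 8 reads between the libraries: Mir7056 in the striatal-enriched phosphatase gene Ptpn5 (9 and 14), Mir6994 in Patl1 (16 and 8), Mir7070 in Fbxw9 (14 and 9), Mir6976 in Srf (11 and 9), Mir6983 in the microglial receptor gene Csf1r (11 and 9) and Mir7020 in Aldh4a1 (12 and 8). The next members by mean CPM with under 10 reads in both libraries were Mir7063 in Ap2a2 (8 and 9), Mir6907 in Rrp1 (5 and 9), Mir6909 in Plpp2 (7 and 7), Mir7023 in Pik3cd (3 and 9) and Mir7071 in Heatr3 (3 and 9). Expression of the host genes was not analysed here.

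The 15 whole-intron hairpins spread from the top of the set to 0. After Mir7080, Mir6944 and Mir7070 came Mir7068 in Cherp with 7 and 12 reads, Mir6970 in Skiv2l with 8 and 10, Mir6958 in Dennd6b with 12 and 5, and Mir7082 in Raver1 with 3 and 4. Mir6974 in Lta and Mir6981 in Arap3 had reads in replicate 2 only, 2 and 1. The 6 without a read were Mir6923 in Myh3, Mir7018 in Hspg2, Mir7058 in Lat, Mir7060 in Fbrs, Mir7088 in Mst1 and Mir7091 in Dnase1l1. A link between host gene and reads was not tested. Members that share a host had these counts: in Skiv2l, the whole-intron Mir6970 and the 3′-end hairpin Mir6971 had 8 and 15 reads in replicate 1 and 10 and 12 in replicate 2, and in Srebf1 Mir6921 had none and Mir6922 had 4 in each library. In Arap3, Mir6980 had 5 reads in replicate 1 and 1 in replicate 2, and the whole-intron Mir6981 had 0 and 1. In Cmip, Mir7077 had 0 and 1 reads and Mir7078 had 2 and 0. The exact intervals overlap within each pair, and Mir6970 shares sequence with Gm27471.

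Most of the 185 members with a mature sequence do not share a seed with another member. The 354 arms held 325 different seeds. A seed was held by more than 1 member in 25 cases and by 3 members in 4 of these, involving 53 members, and 40 seeds of the set also occur in a microRNA outside it. Among the members whose arms are printed above, 2 share a seed with another member, and those pairs are set together here with the seed in capitals.
miR-7047-5p: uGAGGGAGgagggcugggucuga
miR-6965-5p: aGAGGGAGgcuauugggcaggaga
miR-7019-5p: aUCUGGGAggggcugucaggagu
miR-6907-5p: uUCUGGGAcacagggaggcucg
In each pair the bases beyond the seed differ and so do the levels. Mir7047 had 172 and 239 reads and Mir6965 had none, and Mir7019 had 65 and 44 reads against 5 and 9 for Mir6907. The seed of miR-7047-5p also occurs in miR-3103-5p and that of miR-7069-3p in miR-18a-3p, both outside the set. Reads on the 5p and 3p arms cannot be told apart in these counts, so the seed that was abundant in a hairpin's reads was not measured.

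The detected members were on balance higher in replicate 2. On counts scaled by edgeR's TMM method, the ratio of replicate 2 to replicate 1 was above 1 for 24 of the 31 and below it for 7, with a median log2 ratio of 0.74 against 0.06 over all 389 detected genes and -0.01 over the 358 others. Among the 19 other detected genes with an end at a splice site, 15 ratios were above 1 and 4 below, with a median log2 ratio of 0.22. A two-sided exact binomial test per gene, with Benjamini-Hochberg adjustment over the 389 genes and a threshold of 0.05, called 12 members higher in replicate 2 and 0 lower. The background of that test is high: it called 67.6% of all detected genes, 33.9% higher and 33.7% lower in replicate 2. In those 19 genes 8 were called (42.1%), 5 higher and 3 lower. The members' 38.7% called is under the background in total and, at 12 of 31, near the background for higher calls, while no member stood among the lower calls, where 131 genes did. That holds for members with 10 reads in both libraries, a minimum that leaves out members low in replicate 2 such as Mir6989 and Mir7073. With at least 5 reads over both libraries, 23 of 100 members were called (17 higher, 6 lower; 61 ratios above 1 and 39 below) against 51.9% of all genes so tested. With at least 1 read in either library, 20 of 151 were called (16 higher, 4 lower; 90 above and 61 below) against 37.3%. Members have few reads, and at under 100 reads over both libraries 5 of 23 members (21.7%) and 16 of 63 others (25.4%) were called. With 100 or more reads, 7 of 8 members and 235 of 295 others (79.7%) were called. The test asks only whether these 2 libraries differ beyond counting error, not whether animals or conditions do. By the edgeR exact test, which takes the spread of both libraries as its error, 0 members passed, and 0 had an unadjusted p under 0.05. That test called 2 of all 389 genes (0.514%), so the members' 0 is near its background. The difference between the libraries is itself part of its error, so it can call few genes. Its 0 therefore does not show that the libraries agree.

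The called members included the 4 most abundant. The log2 ratio was 0.93 for Mir7080 (95% interval 0.81 to 1.05, exact binomial test, adjusted p = 1.1e-53), and 1.02 for Mir7044 (0.72 to 1.32, exact binomial adjusted p = 8.2e-12). It was 0.66 for Mir7047 (0.37 to 0.95, exact binomial adjusted p = 1e-05) and 1.15 for Mir6944 (0.79 to 1.52, exact binomial adjusted p = 2.3e-10). These 4 intervals overlap one another, and differences between members were not tested. Mir7016 had the highest ratio, 1.54 (0.67 to 2.47), with 16 and 41 reads. Mir6953, Mir7069, Mir7052, Mir6959, Mir7066 and Mir6982 were called with log2 ratios of 1.31, 1.06, 0.98, 0.96, 0.79 and 0.71. The twelfth was Mir6897 in Uggt1 with 10 and 24 reads (log2 ratio 1.44), which lies outside the 20 most abundant and was singled out after its values were seen. Mir7019, with 65 and 44 reads, had a log2 ratio of -0.38 (-0.97 to 0.19) and did not pass. The lowest ratio was that of Mir7059 in Cln3 at -0.67 (-1.94 to 0.53), also singled out after its values were seen.

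**Figure D4:**
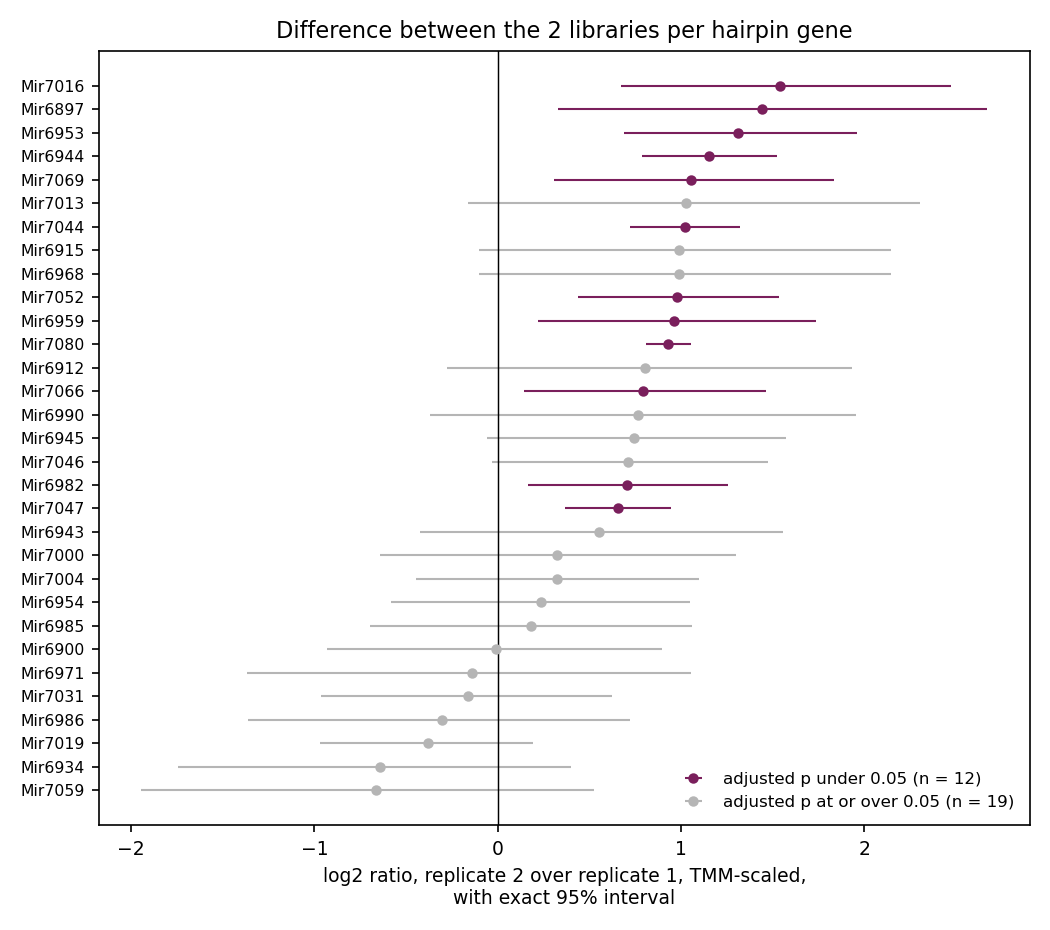
Points are log2 ratios of replicate 2 over replicate 1 (horizontal axis, TMM-scaled) with exact 95% intervals for the 31 detected members. The 12 members with an adjusted p under 0.05 all lie to the right of 0, and the 19 others have intervals that include 0.

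GC content moved with the difference between the libraries among the other detected genes. The detected members had a median hairpin GC content of 60.9%, against 51.3% for the other detected genes. The 115 other detected genes with a GC content of 55% or more had a median log2 ratio of 0.30, with 49 called higher and 28 lower in replicate 2, and the 243 with less had -0.14, with 71 higher and 103 lower. The 26 detected members with 55% or more had a median of 0.73, with 11 higher, and the 5 with less had 0.99, with 1 higher. The libraries also differed in reads that could not be placed, 16.6% in replicate 1 and 22.6% in replicate 2. The part of GC content and of the unmapped reads in the members' ratios was not tested.

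**Figure D5:**
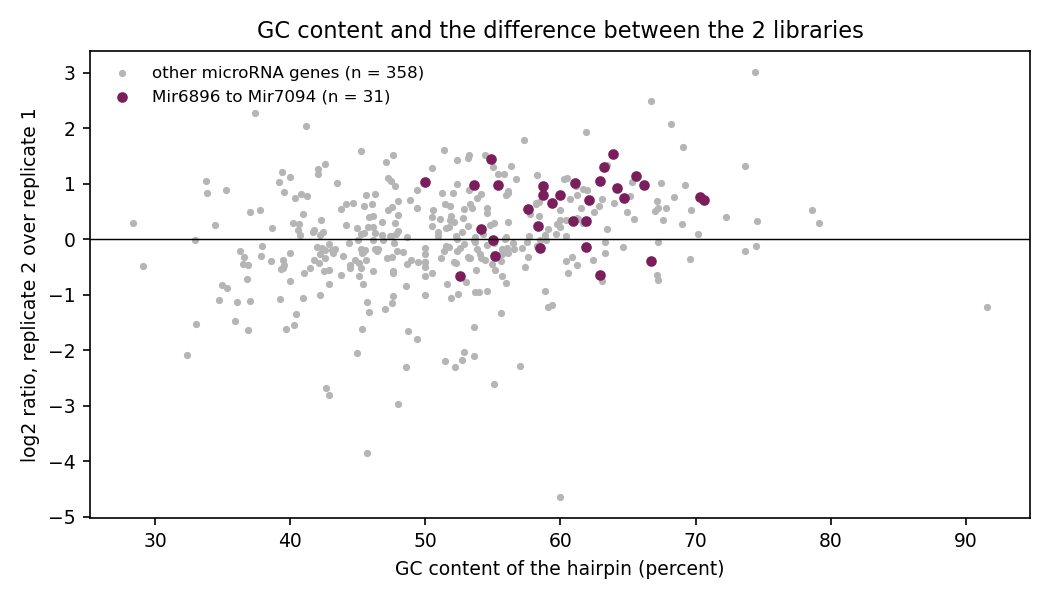
GC content of the hairpin (horizontal axis, percent) and log2 ratio of replicate 2 over replicate 1 (vertical axis) for the 389 detected genes. The 31 members (large points) lie at 50% GC or more, and 24 of them lie above 0.

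The tissue label was checked against microRNAs of brain and of other tissues. Mir132 and Mir137, known from neurons, had 12750 and 6409 CPM, and Mir338 of oligodendrocytes 3025 CPM. Mir122 of liver had 33.2 CPM, Mir206 of muscle 17.4, Mir451a of red blood cells 27.5 and Mir375 of endocrine cells 581.2 CPM. Mir133b and Mir1a-1 of muscle had 0 reads, but they share sequence with copies, as does the neuronal Mir124a-1, which had 1.62 CPM. The other 5 listed brain microRNAs lay between 60.7 and 7201 CPM and also share sequence with copies. Of the 201 members, Mir7080, Mir7044, Mir7047 and Mir6944 had a mean level above that of Mir122. In a bulk tissue, fewer cells of a type and less RNA per cell cannot be told apart.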

How the data were processed

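The authors deposited, for each of 2 microRNA-seq libraries, raw read counts per microRNA gene without regard to strand, on the gene strand and on the opposite strand, on mm10 with GENCODE M21, per the text notes deposited with them. The sources used here name no aligner or counter. The 4 rows that name no gene (64.8% and 67.0% of reads) were left out. CPM was computed over assigned reads. With 1 group, edgeR's quasi-likelihood test has no contrast, so the 2 counts of each gene were compared by an exact binomial test (R 4.3.3). It used TMM-scaled library sizes (edgeR 4.0.16). Its check on simulated counts held counting error only, so that check does not cover the further spread between real libraries. DESeq2 1.42.0 size factors, library totals, other count minimums, the edgeR exact test and the strand-blind column were alternatives. Hairpins were folded with RNAfold 2.7.2 and placed against M21 introns on the same strand, the closest intron being used. Named genes are the 20 detected members of highest mean CPM, up to 10 at 10 reads in 1 library only, and the 5 next below. The members and lists were chosen with earlier results of these data known. The host gene of Mir7047 is not reported here.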

Additional observations from a re-analysis of the deposited data

How the results depend on the processing

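Counts of members depend on the read minimum. With 5 or 20 reads in each library in place of 10, 55 or 18 members were detected, and with 1 library left out 38 to 47. With 3 reads in place of 1, 69 members had reads in each library. The mean share was 0.0581% without Mir7080. Members called were 23 of 100 with at least 5 reads over both libraries (all genes: 51.9%). With at least 1 read in either library they were 20 of 151 (37.3%). By the edgeR exact test, whose error includes the difference tested, they were 0 of 31 (0.514%). They were 12 with DESeq2 size factors (69.2%) or the strand-blind column (66.2%), 14 with library totals (67.1%), where Mir7046 (adjusted p = 0.039, exact binomial test) and Mir6945 (0.049) were added, and 11 without Mir7080, a choice made after seeing the data. Whole-intron hairpins were 14 and 18 with tolerances of 2 and 10 bases. At 10 reads the depth limits what can be told of most members. No paired analysis was possible because there is only 1 group.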
